A study of Mus musculus with 20 samples.

Results

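Messenger RNA of 10 genes that mark macrophages and other leukocytes was followed in mouse aorta. The genes were Csf1r, Cd68, Lyz2, Laptm5, Mrc1, Cd163, Adgre1, Itgam, Ptprc and Coro1a, and they were taken by name: every probe set annotated with exactly 1 gene symbol that was one of these names was used. They had 19 probe sets, of 34945 probe sets with 1 symbol that covered 18193 genes. Each gene was represented by its brightest probe set, the one with the highest mean over the arrays. Each of the 20 Affymetrix arrays held RNA pooled from 8 aortas, so that the spread between replicates is between pools. In the rosiglitazone experiment, adult C57BL/6J mice ate chow that contained rosiglitazone at 3 mg/kg/day for 2 days (3 arrays), 3 mg/kg/day for 14 days (3 arrays), 10 mg/kg/day for 2 days (3 arrays) or 10 mg/kg/day for 14 days (2 arrays), and their controls ate plain chow (3 arrays). In the P465L experiment, adult mice on standard chow carried a dominant-negative P465L form of PPAR gamma, knocked into the gene's own locus (3 arrays), and their controls were wild-type littermates (3 arrays). The knock-in is in the germ line and so is not limited to one cell type, and whether the mice carried 1 or both altered alleles was not given in the sources used here. Whole aorta is a mixture of cells, so fewer cells of a type and less RNA per cell cannot be told apart in any result below.

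Macrophages of the artery wall live mainly in the adventitia and take up lipid, dying cells and debris into lysosomes. Their survival depends on the growth factor receptor encoded by Csf1r. PPAR gamma is a nuclear receptor for fatty acids, best known for driving fat cell differentiation, and it also acts in macrophages, where it raises genes of lipid uptake and storage and restrains inflammatory genes. Rosiglitazone is a synthetic agonist of PPAR gamma. The P465L form does not respond normally to ligand and interferes with the normal receptor. The comparisons asked how these leukocyte genes stood when the receptor was activated and when it was impaired.

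The bases before the transcription start of 3 of the genes are shown because these genes differ in what the arrays gave: Coro1a was called lower with rosiglitazone, Cd68 was lower in some groups without being called, and Mrc1 was not called. The sequences are from RefSeq on build GRCm38.p6, on the gene's own strand, and they end at the last base before the start. Capitals mark GAGGAA, or TTCCTC for the same letters on the opposite strand, which is the core recognised by PU.1, the transcription factor encoded by Spi1 that directs myeloid genes.
Coro1a, chr7:126704817-126705066, minus strand: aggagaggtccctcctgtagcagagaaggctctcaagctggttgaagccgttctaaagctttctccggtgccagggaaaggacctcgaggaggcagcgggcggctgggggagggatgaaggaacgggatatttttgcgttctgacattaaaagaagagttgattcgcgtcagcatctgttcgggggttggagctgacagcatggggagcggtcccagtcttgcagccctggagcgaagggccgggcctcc
Cd68, chr11:69666171-69666420, minus strand: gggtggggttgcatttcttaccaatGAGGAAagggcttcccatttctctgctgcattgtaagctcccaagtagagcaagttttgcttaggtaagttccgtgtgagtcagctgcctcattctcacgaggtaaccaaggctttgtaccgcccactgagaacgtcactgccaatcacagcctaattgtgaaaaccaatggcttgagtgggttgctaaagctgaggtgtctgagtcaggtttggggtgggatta
Mrc1, chr2:14229164-14229413, plus strand: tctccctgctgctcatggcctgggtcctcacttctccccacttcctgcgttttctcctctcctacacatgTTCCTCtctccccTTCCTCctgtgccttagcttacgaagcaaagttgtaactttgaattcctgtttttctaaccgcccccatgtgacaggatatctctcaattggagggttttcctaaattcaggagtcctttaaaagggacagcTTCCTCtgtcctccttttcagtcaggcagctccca
These letters, searched on both strands in the 250 bases before a start, were in 5 of the 8 markers searched (Cd68, Itgam, Laptm5, Mrc1 and Ptprc) and in 25.9% of 27025 genes. Mrc1 held 3 of them, at 180, 167 and 35 bases before its start, and Cd68 held 1, 225 bases before its start. Both listed starts of Coro1a held 0, as did the starts of Lyz2 and Cd163, which were not called. A relation of these letters to the array values was not tested. The letters AGGTCA, which nuclear receptors recognise, were in 0 of the 8 markers and in 15.8% of the 27025 genes. Csf1r was left out of the markers in both searches, and Adgre1 had no window to search. A match describes letters in this window and shows no binding, and the windows found for Laptm5 and Ptprc lie inside those genes, before alternative starts.

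All of the markers except Itgam were measured above the filter on dim probe sets, a mean log2 value of 8.73 or a signal of 354. Itgam encodes the alpha chain of the myeloid integrin Mac-1. Its signal had a median of 239.1 (95.2 to 430.5) over the 11 rosiglitazone arrays and was 360.0, 321.8 and 166.6 in chow aortas. It was 304.0, 318.3 and 442.8 in P465L aortas and 257.5, 432.8 and 330.5 in wild-type littermates. Itgam was therefore not among the 11076 genes tested, and groups next to each other in mean level overlapped. P465L aortas lay wholly above those given 3 mg/kg/day for 2 days and 10 mg/kg/day for 14 days. Those are small groups of the other experiment, and the share of genes that did so was not counted. Between the untreated groups alone, 11.8% of genes lay wholly higher in wild-type littermates than in chow aortas. Cd3e, Cd3d, Cd3g, Cd2, Cd4, Cd5 and Cd247, which define T cells, were below the filter too, so that 3 of 10 measured T cell markers were tested. The 9 smooth muscle markers, which define the main cell of the vessel wall, were all above it. Array medians ran from 321.3 to 450.7 after the scaling, and the number of arrays limits the precision. Levels and differences below are on the scale of the deposited signal or of log2(signal + 72), and a log2 fold change on that scale understates the change of dim genes.

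**Figure D1:**
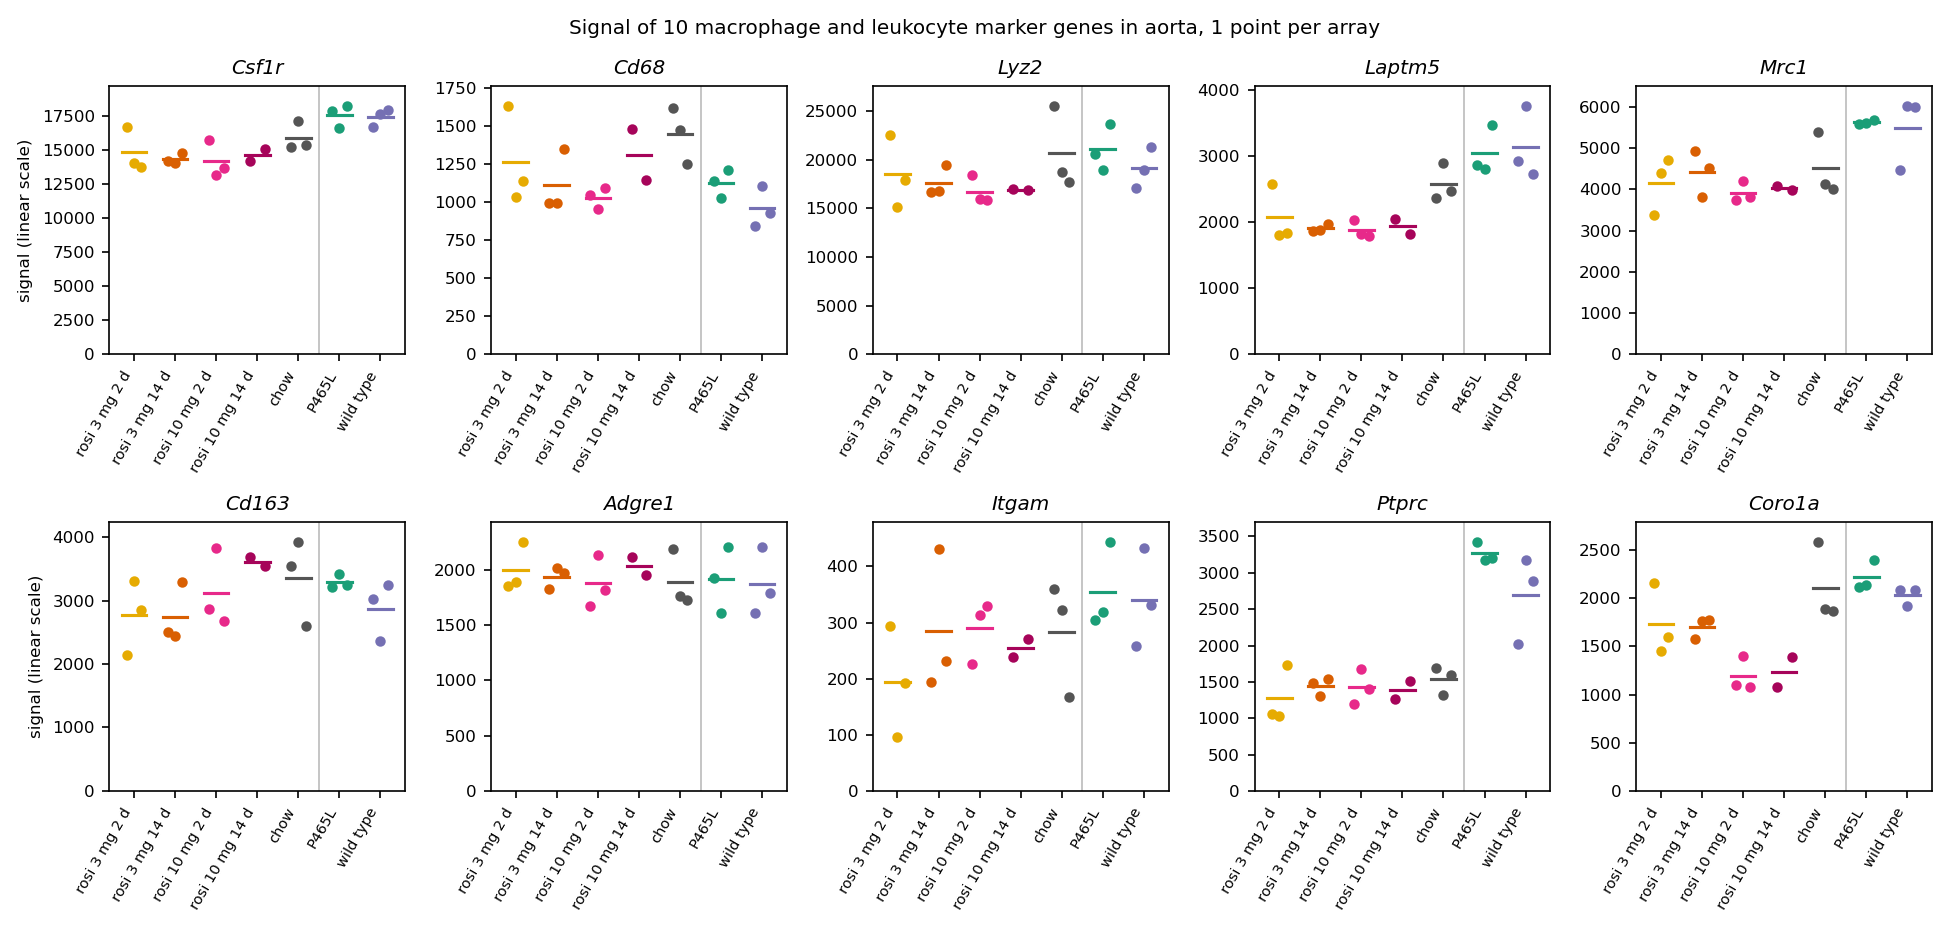
Signal (linear scale, vertical axis from 0) of the brightest probe set of each of the 10 markers in the 7 groups; each point is 1 array, each line a group mean, rosi stands for rosiglitazone, wild type for wild-type littermates, and the grey line parts the 2 experiments. Coro1a is lowest in the 5 arrays of 10 mg/kg/day, and Ptprc is higher in the 6 arrays of the P465L experiment than in the 14 others.

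With rosiglitazone the markers stood slightly lower, and 1 of them passed the test in 1 group. Averaged over the 4 rosiglitazone groups against chow, 8 of the 9 tested markers were lower and 1, Adgre1, was higher, with a median log2 fold change of -0.15 against a median of -0.02 over all genes tested, of which 55.0% were lower. In this comparison 0 of the 9 markers were called by limma at an adjusted p under 0.05, where the background was 0.433% of genes (48 of 11076). Coro1a, Laptm5 and Cd68 had an unadjusted p under 0.05, as did 1569 of the 11076 genes. The 4 rosiglitazone groups were set against the same 3 chow arrays, so their values are not independent of each other. At 3 mg/kg/day, 8 of 9 markers were lower after 2 days (median -0.20) and 8 of 9 after 14 days (median -0.21). The counts called were 0 and 0 there, against a background of 0% and 0%, with 1 and 2 markers, and 977 and 916 genes, at an unadjusted p under 0.05. At 10 mg/kg/day for 2 days, 9 of 9 were lower (median -0.19) and 1, Coro1a, was called, against a background of 0.506%. At 10 mg/kg/day for 14 days, 7 of 9 were lower (median -0.14) and 0 were called, against a background of 0.271%. There 2 markers and 1391 genes had an unadjusted p under 0.05. Without chow array A, the chow array with the highest mean of the markers, the median of the average comparison was -0.08 in place of -0.15, and without chow array C it was -0.30.

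**Figure D2:**
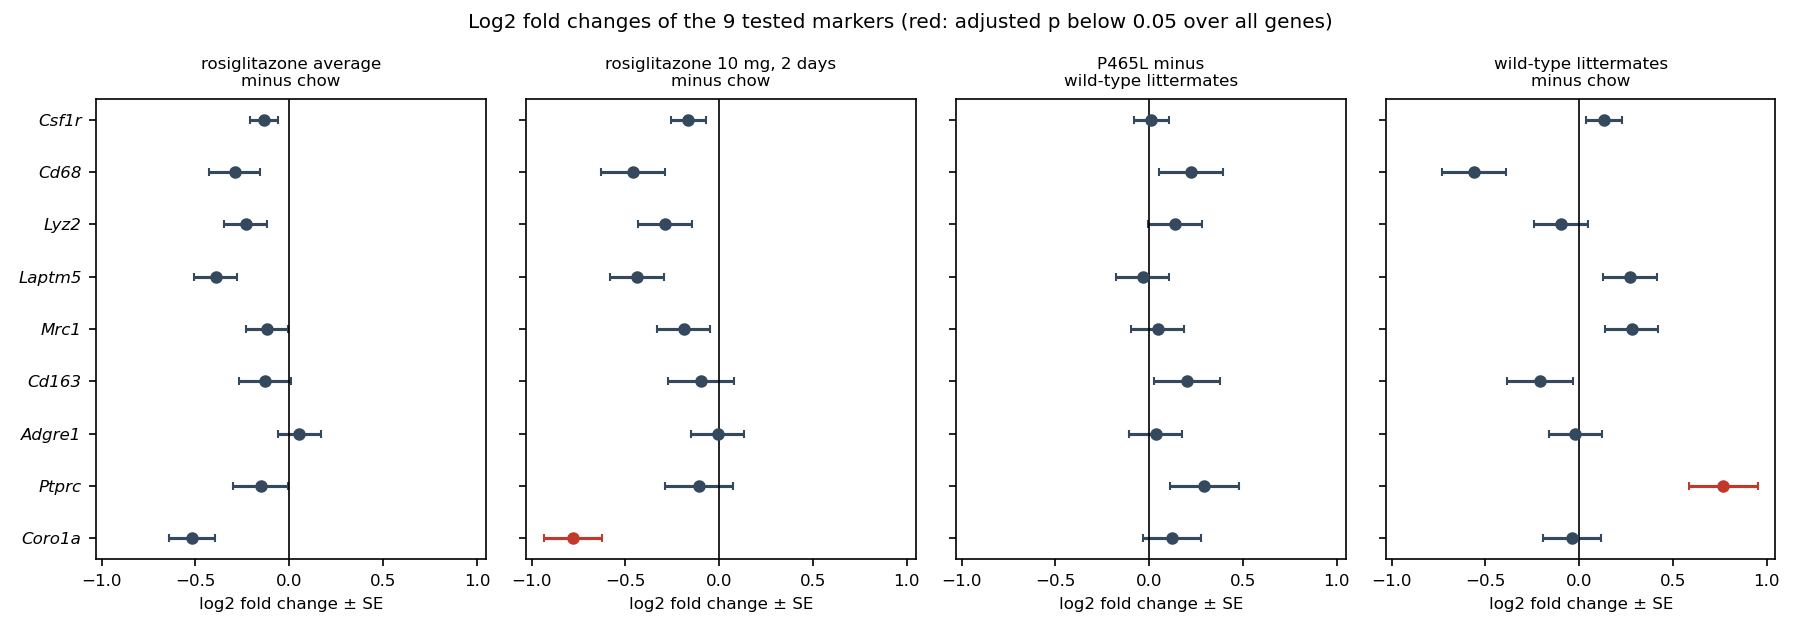
Log2 fold change with its standard error (horizontal axis) of the 9 tested markers in 4 comparisons, from the limma fit over all 20 arrays; red marks an adjusted p under 0.05 over all genes. Coro1a is red at 10 mg/kg/day for 2 days with -0.78, and Ptprc is red for wild-type littermates against chow with 0.77.

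Coro1a, which encodes coronin 1A, an actin-binding protein of leukocytes needed for T cell survival and for phagosome handling in macrophages, had the largest difference among the markers in each comparison at 10 mg/kg/day. Its signal was 1101.0, 1403.1 and 1077.6 in aortas given 10 mg/kg/day for 2 days and 1074.5 and 1394.9 in those given 10 mg/kg/day for 14 days, against 2580.1, 1883.2 and 1870.5 in chow aortas. Every array at 10 mg/kg/day lay below every chow array. At 3 mg/kg/day the signal was 2159.7, 1456.5 and 1596.2 after 2 days and 1575.5, 1764.8 and 1770.9 after 14 days. The 14-day arrays lay below every chow array, and 1 of the 2-day arrays lay among them. After 2 days at 10 mg/kg/day Coro1a fell by 0.78 on the log2 scale (SE 0.16, limma adjusted p = 0.0325), to 0.58 of the chow level. After 14 days at 10 mg/kg/day the log2 fold change was -0.74 (SE 0.17, adjusted p = 0.0886), and over the 4 groups it was -0.52 (SE 0.12, adjusted p = 0.0728). At 3 mg/kg/day it was -0.27 after 2 days (SE 0.16, adjusted p = 0.623) and -0.28 after 14 days (SE 0.16, adjusted p = 0.655). The call at 10 mg/kg/day for 2 days rests on all of its arrays: without any 1 of its 3 arrays or of the 3 chow arrays the difference was between -0.90 and -0.63 and was not called, with an adjusted p from 0.0524 to 0.164.

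A second Coro1a probe set, dimmer than the first, had signals of 951.8, 805.0 and 801.5 after 2 days at 10 mg/kg/day and 790.6 and 1232.9 after 14 days at that dose, against 1617.5, 1369.9 and 1374.3 with chow. The same 5 arrays lay below every chow array on this probe set too, which is no measurement of other pools. Of the genes tested, by their brightest probe sets, 13.5% lay wholly below chow after 2 days at that dose and 20.3% after 14 days. Fitted among all probe sets, the second probe set differed in log2 signal by -0.72 after 2 days at 10 mg/kg/day (SE 0.16, adjusted p = 0.0663) and of 0.03 after 2 days at 3 mg/kg/day (SE 0.16, adjusted p = 0.984). The third probe set of the gene was near background, with a mean signal of 62.4, and gave -0.29 (SE 0.44) after 2 days at 10 mg/kg/day.

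**Figure D3:**
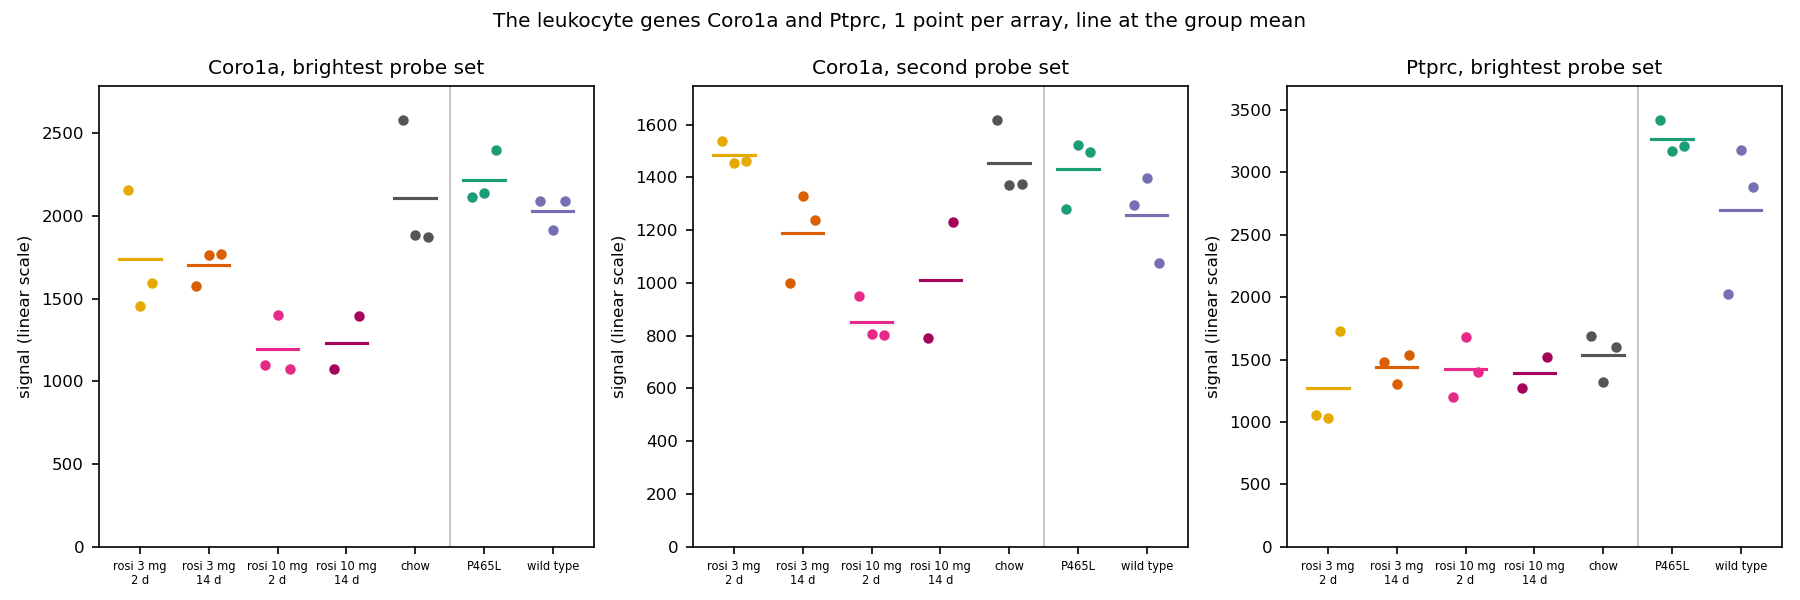
Signal (linear scale, vertical axis from 0) of the 2 brighter probe sets of Coro1a and of the brightest of Ptprc in the 7 groups; each point is 1 array, each line a group mean, and rosi stands for rosiglitazone. Both Coro1a panels place the 5 arrays at 10 mg/kg/day below the 3 chow arrays, and the Ptprc panel places the same 5 arrays among the chow arrays or just below them.

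The lysosomal markers came next in size. Laptm5 encodes a lysosomal membrane protein of blood cells that limits signalling from antigen receptors. Its signal was 2575.3, 1801.6 and 1841.8 after 2 days and 1865.0, 1888.3 and 1969.4 after 14 days at 3 mg/kg/day, and 2028.0, 1822.6 and 1789.6 after 2 days and 2054.0 and 1823.4 after 14 days at 10 mg/kg/day, against 2361.0, 2896.3 and 2478.3 with chow. Of the 11 rosiglitazone arrays, 10 lay below every chow array, and 1 array given 3 mg/kg/day for 2 days did not. The log2 fold change lay between -0.44 and -0.32 in the 4 groups and was -0.39 over all of them (SE 0.11, adjusted p = 0.132), so Laptm5 was not called. Its other probe sets did not show this difference: over the 4 groups they gave -0.09, 0.13, 0.55 and -0.13, with standard errors from 0.15 to 0.45, and with the mean of all 5 probe sets the Laptm5 value was 0.01.

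Cd68 encodes macrosialin, a glycoprotein of late endosomes and lysosomes of macrophages. Its signal after 2 days at 10 mg/kg/day was 1044.8, 953.1 and 1089.5, against 1616.5, 1475.1 and 1248.1 with chow, with no overlap. The log2 fold change there was -0.46 (SE 0.17, adjusted p = 0.209). After 14 days at 10 mg/kg/day the signal was 1480.2 and 1142.5, which overlapped chow, and the log2 fold change was -0.14 (SE 0.19, adjusted p = 0.823). At 3 mg/kg/day Cd68 was 1630.8, 1030.5 and 1134.8 after 2 days and 993.0, 994.1 and 1348.6 after 14 days, and its average over the 4 groups was -0.29 (SE 0.14, adjusted p = 0.343).

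Lyz2, the lysozyme gene of macrophages and neutrophils, had a median signal of 16935.1 (15156.1 to 22528.2) over the 11 rosiglitazone arrays, against 25543.1, 18744.5 and 17765.3 with chow. Chow array A stood well above the other 2, and the groups overlapped. The average log2 fold change was -0.23 (SE 0.12, adjusted p = 0.368). Without chow array A this average was -0.071, and the value at 3 mg/kg/day for 2 days was 0.0035 in place of -0.16.

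Csf1r, the receptor for the macrophage growth factors CSF1 and IL-34, had a median signal of 14157.1 (13161.5 to 16662.5) over the 11 rosiglitazone arrays, against 15219.8, 17098.3 and 15355.8 with chow. On this brightest probe set the difference was small and steady, with -0.10 and -0.15 at 3 mg/kg/day for 2 and 14 days, -0.16 and -0.12 at 10 mg/kg/day for 2 and 14 days, and -0.13 on average (SE 0.08, adjusted p = 0.437). A second Csf1r probe set gave -0.59 at 10 mg/kg/day for 2 days (SE 0.14, adjusted p = 0.101 over all probe sets) and between -0.21 and -0.12 in the other groups. The remaining one gave 0.04 and -0.18 at 3 mg/kg/day for 2 and 14 days, and -0.26 and -0.33 at 10 mg/kg/day. The probe sets of this gene thus disagree in size, and at 3 mg/kg/day for 2 days in sign.

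No scavenger receptor of resident macrophages was called. Mrc1, the mannose receptor, had a median of 4075.3 (3378.1 to 4931.3) with rosiglitazone, against 5397.4, 4130.6 and 4020.4 with chow, and an average of -0.12 (SE 0.11, adjusted p = 0.688). Without chow array A the Mrc1 average was 0.01. Cd163, the receptor for haptoglobin bound to haemoglobin, had a median of 2866.0 (2151.2 to 3830.7) with rosiglitazone, against 3544.0, 3920.6 and 2604.2 with chow, and an average of -0.13 (SE 0.14, adjusted p = 0.733). Adgre1, an adhesion receptor that marks mature mouse macrophages, had a median of 1953.5 (1677.8 to 2250.5) with rosiglitazone, against 2190.7, 1760.4 and 1728.9 with chow. It was the 1 marker with a positive average, 0.05 (SE 0.11, adjusted p = 0.891). When 1 array was left out, the Adgre1 average ran from -0.0053 (without chow array C) to 0.16 (without chow array A), and the Cd163 average from -0.30 (without chow array C) to -0.0093 (without chow array B).

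Ptprc encodes CD45, the membrane phosphatase of all nucleated blood cells, and so marks leukocytes whatever their type. Its signal had a median of 1396.6 (1032.5 to 1731.3) over the 11 rosiglitazone arrays, against 1687.1, 1317.1 and 1598.8 with chow. After 2 days at 10 mg/kg/day it was 1196.0, 1680.8 and 1396.6, which overlapped chow, and the log2 fold change was -0.11 (SE 0.18, adjusted p = 0.827). Coro1a and Ptprc are both expressed across leukocytes, and the values set side by side are -0.78 for Coro1a and -0.11 for Ptprc, a difference that was not tested.

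Markers whose arrays did not overlap with chow were counted in each group. At 3 mg/kg/day for 2 days 0 of 9 markers lay wholly below chow (background 6.92% of genes), for 14 days 3 of 9 (Csf1r, Laptm5 and Coro1a; 7.49%), at 10 mg/kg/day for 2 days 3 of 9 (Cd68, Laptm5 and Coro1a; 13.5%) and for 14 days 4 of 9 (Csf1r, Lyz2, Laptm5 and Coro1a; 20.3%). With all 11 rosiglitazone arrays together against the 3 chow arrays, 0 of 9 markers lay wholly below, against 1.26% of genes.

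Between the doses, Coro1a was the 1 of 9 markers whose brightest probe set did not overlap. All 5 arrays at 10 mg/kg/day (1074.5 to 1403.1) lay below all 6 arrays at 3 mg/kg/day (1456.5 to 2159.7), which held for 0.596% of genes, and the log2 fold change between the doses was -0.48 (SE 0.12, unadjusted p = 0.000522, adjusted p = 0.198). The second Coro1a probe set did overlap, with 790.6 to 1232.9 at 10 mg/kg/day, against 1000.1 to 1537.8 at 3 mg/kg/day. In the comparison of doses 0 of 9 markers were called, as were 0% of genes, with 2 markers and 1405 genes at an unadjusted p under 0.05. The other marker was Cd163, with a positive log2 fold change of 0.29 (SE 0.13, adjusted p = 0.380). Between 14 and 2 days 0 of 9 markers were called, again with 0% of genes, and 0 markers and 464 genes had an unadjusted p under 0.05. The median of the markers was 0.04, and none differed by more than 0.11 in either direction.

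In P465L aortas the markers stood slightly higher than in wild-type littermates, and none was called. Of the 9 tested, 8 were higher and 1, Laptm5, was lower, with a median log2 fold change of 0.12 against 0.01 over all genes tested. The count called was 0 of 9, where the background was 0.0181% (2 of 11076), and 0 markers had an unadjusted p under 0.05, as 821 genes did. Ptprc was 3418.8, 3171.9 and 3209.1 in P465L aortas, against 2026.3, 3180.2 and 2885.5 in wild-type littermates. Wild-type array A was the low one, and the groups overlapped by a small margin. The log2 fold change of Ptprc was 0.29 (SE 0.18, adjusted p = 0.720), and it was 0.11 without wild-type array A. Coro1a was 2117.6, 2137.4 and 2398.5 in P465L aortas, against 2089.5, 1917.5 and 2088.4 in wild-type littermates. It was the 1 marker of 9 that did not overlap there, against 7.36% of genes, and its log2 fold change was 0.12 (SE 0.16, adjusted p = 0.862). Cd68 was 1136.0, 1027.9 and 1211.4 in P465L aortas, against 843.2, 1103.1 and 926.4 in wild-type littermates, with a log2 difference of 0.22 (SE 0.17, adjusted p = 0.764). The others lay between -0.04 for Laptm5 and 0.20 for Cd163.

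Between the 2 sets of untreated mice 1 of the 9 tested markers, Ptprc, was called. Ptprc was higher in wild-type littermates, at 2026.3, 3180.2 and 2885.5, than in chow aortas, at 1687.1, 1317.1 and 1598.8. It rose by 0.77 in log2 signal (SE 0.18, adjusted p = 0.0161), to 1.70 times the chow level. It was the 1 called marker of 9, where 6.5% of genes were called (720 of 11076), and the 1 marker wholly above chow, as 11.8% of genes were. All 6 arrays of the P465L experiment (2026.3 to 3418.8) lay above all 14 arrays of the rosiglitazone experiment (1032.5 to 1731.3), which held for 1.37% of genes. The Ptprc call was lost without chow array B (adjusted p = 0.0730), without wild-type array B (0.0975) and without wild-type array C (0.0509), at log2 fold changes of 0.67, 0.64 and 0.71. Cd68 ran the other way, at 843.2, 1103.1 and 926.4 in wild-type littermates, against 1616.5, 1475.1 and 1248.1 in chow aortas, with a log2 difference of -0.56 (SE 0.17, adjusted p = 0.0531). It was the 1 marker of 9 wholly below chow, as 16% of genes were. Of the others, Mrc1 was at 0.28 (SE 0.14, adjusted p = 0.249), Laptm5 at 0.27 (SE 0.14, adjusted p = 0.271) and Coro1a at -0.04 (SE 0.16, adjusted p = 0.912). Mice, cohort and experiment differ together here and cannot be told apart.

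Where a marker had several probe sets, they did not always follow one another between the cohorts. The second Csf1r probe set was 3434.9, 2670.9 and 3109.5 in wild-type littermates, against 5194.3, 4642.7 and 4510.9 in chow aortas, a log2 difference of -0.63 (SE 0.14, adjusted p = 0.0238 over all probe sets). The brightest Csf1r probe set gave 0.13 (SE 0.09) in the same comparison and the remaining one 0.02 (SE 0.15). The dim second probe set of Ptprc, with a mean signal of 102, gave -0.08 (SE 0.36), and the mean of both Ptprc probe sets gave 0.34, which was not called (adjusted p = 0.368). The brightest Laptm5 probe set gave 0.27 (SE 0.14), against -0.40 (SE 0.19) and -0.45 (SE 0.29) in its other probe sets above the filter. Its dim probe sets gave 0.66 (SE 0.56) and 0.10 (SE 0.50), so the sign for Laptm5 depends on the probe set. Which transcripts each probe set reads was not tested.

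**Figure D4:**
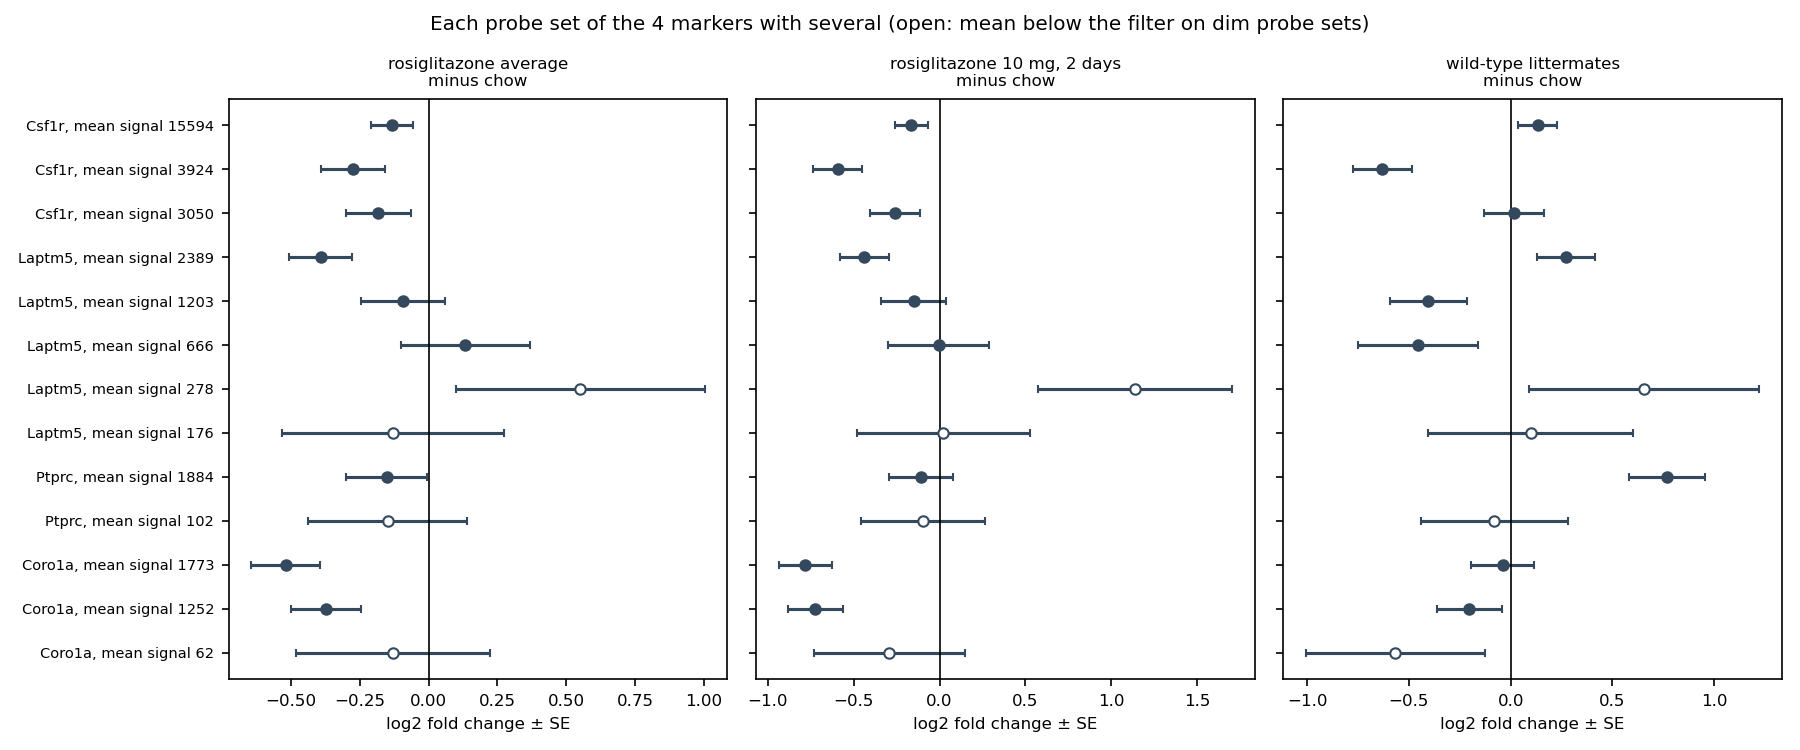
Log2 fold change with its standard error (horizontal axes, which differ in scale) of each probe set of Csf1r, Laptm5, Ptprc and Coro1a in 3 comparisons; open points are probe sets whose mean is below the filter. The Coro1a points lie left of 0 at 10 mg/kg/day for 2 days, while the Laptm5 points fall on both sides of 0.

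Other macrophage and leukocyte genes were read from lists chosen by function. Of 19 tested genes of lysosomes and phagocytosis, 16 were lower over the rosiglitazone groups (median -0.15) and 1 was called lower: Axl, a receptor for apoptotic cells that smooth muscle also expresses. Axl ranged from 14088.8 to 19003.0 with rosiglitazone, against 20038.6 to 21667.0 with chow. It lay wholly below chow, as 1.26% of genes did. It fell by 0.36 (SE 0.07, adjusted p = 0.0256), where 0.433% of genes were called. With the mean of the Axl probe sets the value was positive, 0.11, and the call stood in 10 of 14 fits that left out an array. Of 21 tested genes of leukocyte signalling and cytoskeleton, 15 were lower (median -0.10) and 0 were called, with 4 at an unadjusted p under 0.05. The lowest p among them was that of Arhgdib, with -0.35 (SE 0.10, adjusted p = 0.135). All 4 tested subunits of the phagocyte oxidase were lower (median -0.21), with 0 called and 1 at an unadjusted p under 0.05, Ncf1 at -0.27 (SE 0.12, adjusted p = 0.293). Of 5 tested leukocyte integrins and adhesion receptors 4 were lower (median -0.31), with 0 called and 1 at an unadjusted p under 0.05. It was Itgb2, the beta chain that pairs with the product of Itgam, which ranged from 695.9 to 1581.4 with rosiglitazone, against 1259.8 to 1904.8 with chow, at -0.51 (SE 0.17, adjusted p = 0.173).

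Of 19 tested genes of resident macrophages, 11 were lower and 8 higher over the rosiglitazone groups (median -0.04), with 0 called and 1 at an unadjusted p under 0.05, Ltc4s at 0.48 (SE 0.14, adjusted p = 0.135). Of 11 tested myeloid growth factors and transcription factors, 9 were higher (median 0.14), with 0 called and 1 at an unadjusted p under 0.05, Csf1 at 0.23 (SE 0.10, adjusted p = 0.297). Of 6 tested genes of monocytes and inflammatory macrophages, 2 were lower and 4 higher (median 0.11), with 0 called and 2 at an unadjusted p under 0.05. The lowest p was that of the chemokine Ccl12, which stood on the other side of 0 from the median, at -0.84 (SE 0.31, adjusted p = 0.220) on average and -1.51 (SE 0.39, adjusted p = 0.302) at 3 mg/kg/day for 2 days. Ccr2, Cx3cr1, Ccl2, Ccl3, Ccl7, Tnf, Il6, Nos2 and Cxcl2 were below the filter. Of 4 tested genes of alternative activation, 3 were lower (median -0.04), with 0 called and 0 at an unadjusted p under 0.05, and Arg1, Chil3, Trem2, Il1rn, Ccl17, Pdcd1lg2 and Il10 were below the filter.

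Genes that PPAR gamma is known to raise in macrophages were higher in 9 of 9 tested (median 0.72). Of these 9 genes 3 were called over the rosiglitazone groups, where 0.433% of all genes were called. The 3 called were Angptl4, an inhibitor of lipoprotein lipase, at 1.26 (SE 0.25, adjusted p = 0.0256), the fatty acid carrier Fabp4 at 0.84 (SE 0.17, adjusted p = 0.0256) and the pyruvate dehydrogenase kinase Pdk4 at 1.44 (SE 0.30, adjusted p = 0.0304). The calls of Angptl4 and Fabp4 stood in 10 of 14 fits that left out an array, and that of Pdk4 in 6. Fat cells express these genes too, and 5 of 6 tested adipocyte markers were higher (median 0.64), with 0 called and 3 at an unadjusted p under 0.05. Their summed signal ran from 49898.5 to 140175.3 with rosiglitazone, against 33551.2 to 58167.5 with chow. The part of fat cells in these values was not tested.

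Of 7 tested genes of dendritic cells and MHC class II, 5 were lower and 2 higher over the rosiglitazone groups (median -0.39), with 0 called and 4 at an unadjusted p under 0.05. The same counts lower and higher were found in each group, with medians of -0.31 and -0.22 at 3 mg/kg/day for 2 and 14 days and of -0.69 and -0.32 at 10 mg/kg/day for 2 and 14 days. At 10 mg/kg/day for 2 days 3 of the 7 were called lower, where 0.506% of all genes were called: the class II chain H2-Ab1 fell by 1.24 (SE 0.23, adjusted p = 0.0235), the invariant chain Cd74 by 0.89 (SE 0.18, adjusted p = 0.0325) and H2-Aa by 0.69 (SE 0.16, adjusted p = 0.0488). H2-Ab1 ranged from 2452.0 to 2680.3 there, against 4033.8 to 9179.9 in chow aortas, which differed widely among themselves. Each of the 3 calls stood in 1 of 6 fits that left out an array. Among other cells, Pecam1 of endothelium was called lower on average, at -0.57 (SE 0.11, adjusted p = 0.0209), with 8793.8 to 13072.7 in rosiglitazone aortas, against 15341.9 to 18465.9 in chow aortas. On average 0.433% of all genes were called. PECAM1 is also made by leukocytes and platelets. The 9 tested endothelial markers were lower in 6 (median -0.11), with summed signals of 31447.8 to 40094.7 in rosiglitazone aortas, against 40081.0 to 48334.1 in chow aortas, and what part this has in the markers was not tested. Of 5 tested B cell markers 4 were lower (median -0.17), of 3 tested T cell markers 1 was lower (median 0.23), both tested neutrophil markers were lower (median -0.26) and of 5 tested mast cell markers 1 was lower (median 0.19), with 0 called in each on average and 1, 1, 0 and 2 in that order at an unadjusted p under 0.05. In 1 group a B cell marker was called: Blnk, an adaptor of B cell receptor signalling, was 173.8 to 397.9 after 14 days at 10 mg/kg/day, against 620.7 to 776.2 with chow, and fell by 1.15 (SE 0.24, adjusted p = 0.0450). The Blnk call stood in 1 of 5 fits that left out an array, and 0.271% of all genes were called in that group. Smooth muscle markers were lower in 5 of 9 (median -0.04), fibroblast markers in 3 of 8 (median 0.02) and red blood cell markers in 2 of 2 (median -0.24), with 0 called and 1, 2 and 0 at an unadjusted p under 0.05.

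In P465L aortas 0 genes of these lists were called against wild-type littermates. Leukocyte signalling genes were higher in 15 of 21 (median 0.10), with 3 at an unadjusted p under 0.05, and Rac2 was 1152.4 to 1501.5 in P465L aortas, against 664.5 to 833.4 in wild-type littermates, at 0.72 (SE 0.21, adjusted p = 0.494). B cell markers were higher in 5 of 5 (median 0.34), with 1 at an unadjusted p under 0.05. Their summed signal was 3538.3 to 3891.9 in P465L aortas, against 2116.9 to 3224.4 in wild-type littermates, and their part in the slightly higher leukocyte genes was not tested. PPAR gamma targets of macrophages were lower in 7 of 9 (median -0.36), adipocyte markers in 5 of 6 (median -0.58), smooth muscle markers in 7 of 9 (median -0.24) and endothelial markers in 7 of 9 (median -0.21). Resident macrophage genes were higher in 12 of 19 (median 0.05), and lysosome and phagocytosis genes in 9 of 19 (median -0.05).

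Between the untreated cohorts, 5 of 7 tested class II and dendritic cell genes were called lower in wild-type littermates (median -1.26). Of all genes 6.5% were called in this comparison. Among the class II genes were Cd74 at -1.51 (SE 0.18, adjusted p = 3.05e-05), H2-Aa at -1.26 (SE 0.16, adjusted p = 3.73e-05), H2-Ab1 at -1.58 (SE 0.23, adjusted p = 0.000285) and H2-Eb1 at -1.51 (SE 0.23, adjusted p = 0.000416). Cd74 was 6037.9 to 8143.3 in wild-type littermates, against 14098.6 to 25597.5 in chow aortas. The cathepsin Ctss, which trims the invariant chain, fell by 0.85 (SE 0.16, adjusted p = 0.00356), the complement gene C1qa by 0.51 (SE 0.13, adjusted p = 0.0232) and the chemokine Ccl8 by 1.02 (SE 0.30, adjusted p = 0.0451). Called higher were Arhgdib at 0.65 (SE 0.13, adjusted p = 0.00475), S100a9 of neutrophils and monocytes at 1.41 (SE 0.29, adjusted p = 0.00688) and the interleukin-7 receptor Il7r of lymphocytes at 1.03 (SE 0.30, adjusted p = 0.0456). The lists of these genes did not all move with them. T cell markers, with Il7r, were lower in 2 of 3 tested (median -0.23). Leukocyte signalling genes, with Arhgdib, were lower in 11 of 21 (median -0.04). Lysosome and phagocytosis genes, with Ctss, were higher in 12 of 19 (median 0.04). Resident macrophage genes, with C1qa, were lower in 10 of 19 (median -0.04). Monocyte genes were lower in 5 of 6 (median -0.48) and neutrophil markers higher in 2 of 2. When each of the 6 arrays was left out in turn, the calls of Cd74, H2-Aa, H2-Ab1, H2-Eb1, Ctss, Arhgdib and S100a9 stood in 6 of 6 fits, that of Ccl8 in 3, that of C1qa in 2 and that of Il7r in 1. Of the PPAR gamma targets 8 of 9 were higher, with 5 called, against the same 6.5% of genes. The called targets included the fatty acid receptor Cd36 at 1.47 (SE 0.32, adjusted p = 0.00914), Angptl4 at 1.29 (adjusted p = 0.0170), the lipid droplet gene Plin2 at 1.07 (adjusted p = 0.0182) and Fabp4 at 0.76 (adjusted p = 0.0327). Adipocyte markers were higher in 6 of 6 (median 0.56), with 0 called. Their summed signal ran from 59815.3 to 99487.7 in wild-type littermates, against 33551.2 to 58167.5 in chow aortas. The part of fat cells in the values of the PPAR gamma targets was not tested. Of 8 tested fibroblast markers 5 were higher (median 0.06) and 1 was called, where 6.5% of all genes were. It was Dcn at 0.33 (SE 0.10, adjusted p = 0.0437). The calls of Cd36 and Plin2 stood in 4 of the 6 fits that left out an array, and those of Angptl4 and Fabp4 in 3. That of Dcn stood in 1 of the 6 and in 3 of 8 other settings, with values down to 0.018.

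**Figure D5:**
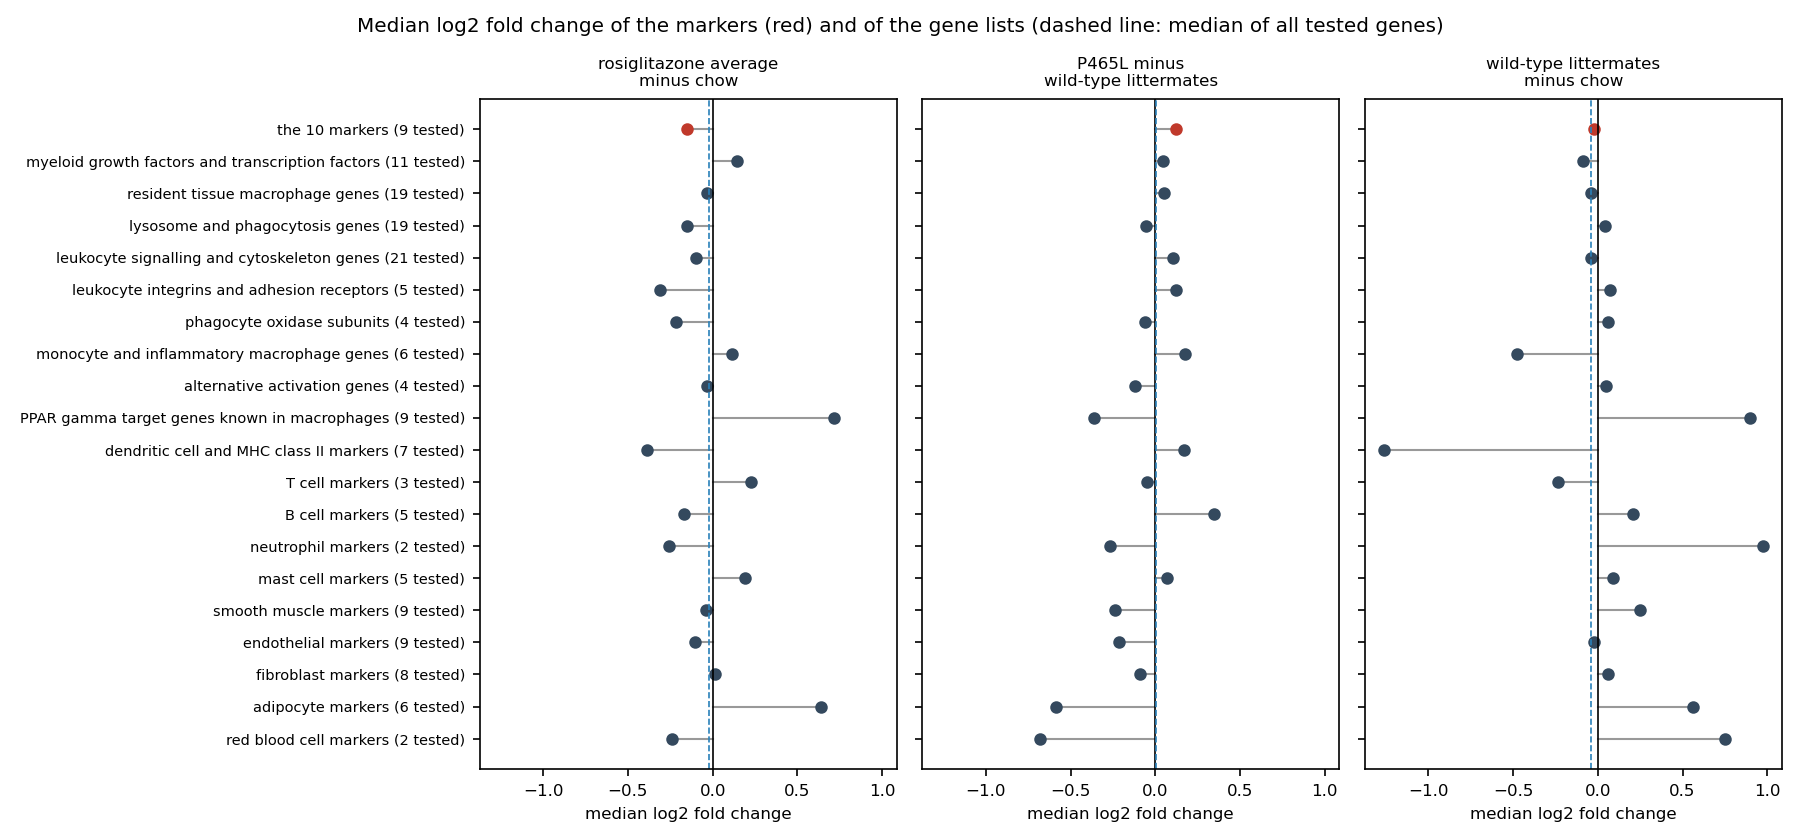
Median log2 fold change (horizontal axis) of the markers (red) and of 19 lists of genes in 3 comparisons; the dashed line is the median of all genes tested, and the number of genes tested is beside each name. The markers lie at -0.15 with rosiglitazone, 0.12 in P465L aortas and -0.02 for wild-type littermates against chow.

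As a description of the markers together, each was centred on its own mean log2 value and the 9 were averaged in each array. The groups averaged -0.10, -0.11, -0.20 and -0.11 with rosiglitazone (3 mg/kg/day for 2 and 14 days, 10 mg/kg/day for 2 and 14 days) and 0.08 with chow, where array A was at 0.23, B at 0.07 and C at -0.05. They averaged 0.26 ± 0.09 (SD, n = 3) in P465L aortas and 0.14 ± 0.12 (SD, n = 3) in wild-type littermates. The markers did not move as 1 block: over the 36 pairs of markers the median Pearson r across the 20 arrays was 0.22, and it ran from -0.30 to 0.91, the highest for Csf1r with Laptm5. That pair was read from the brightest probe sets, which some other probe sets of both genes did not follow between the cohorts. The arrays share groups and cohorts, and with each group's mean taken out the median r was 0.16. The genes outside the set that followed this mean most closely were Fbln2 (r = 0.88), the matrix protein fibulin 2, and Alox5ap (r = 0.87), which encodes the protein that hands arachidonic acid to 5-lipoxygenase in leukocytes. Maob, Cpt1a, Slc6a6, Limd2, Slc25a30, Ms4a4b, Cygb and Apod followed with r from 0.84 to 0.87. With group means taken out r was 0.72 for Alox5ap, 0.65 for Fbln2 and -0.14 for Limd2, so the place of Limd2 rests on differences between groups.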

How the data were processed

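RNA of pooled mouse aortas was measured on Affymetrix arrays. The deposited intensity values are linear signals per probe set, made by the authors with MAS5, per the submitters' processing notes. The sources used here give neither its version nor any filter. Trimming 2% of values at each end left a mean of 1500 on each array. Of 45101 probe sets, 64 were controls, 932 had several gene symbols and 9160 had none, and these were left out. Entrez IDs were found in the GRCm38.p6 gene table for 34741 of 34945 probe sets, and 0 symbols changed.

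Signals were analysed as log2(signal + 72), where 72 is near the 20th percentile of all values. Genes took their brightest probe set and were tested at or above the 50th percentile of probe-set means. limma 3.58.1 in R 4.3.3 fitted 1 mean per group over all 20 arrays (13 residual and 7.34 prior degrees of freedom, eBayes with trend, two-sided, Benjamini-Hochberg over 11076 genes), and "called" means an adjusted p under 0.05. The fit was tested on simulated data. Tables were made in Python 3.11.15 (pandas 2.3.3, numpy 2.4.6, scipy 1.17.1) and figures with matplotlib 3.10.9. The markers and all lists were chosen with earlier results of these data known. All markers were named. From each list up to 4 called genes with the smallest p were to be named, or else at most the gene with the smallest p. Genes below the filter were named as such. Alternatives were the offset, filter, normalization, probe-set summary, arrays in the fit, variance trend, array weights, replicate block and leaving out each array. The recalculation of list genes under these alternatives was chosen after seeing the data.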

Additional observations from a re-analysis of the deposited data

Results flagged for a closer look

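The brightest Coro1a probe set did not overlap its controls in some rosiglitazone groups and in P465L aortas, on opposite sides. Every array given 3 mg/kg/day for 14 days, 10 mg/kg/day for 2 days and 10 mg/kg/day for 14 days lay below every chow array, with log2 fold changes of -0.28, -0.78 and -0.74, as 7.49%, 13.5% and 20.3% of genes did, while every P465L array lay above every array of wild-type littermates, with a log2 fold change of 0.12 (SE 0.16), as 7.36% of genes did. At 3 mg/kg/day for 2 days the arrays overlapped chow. The second Coro1a probe set overlapped in P465L aortas (1280.8 to 1523.3) and wild-type littermates (1077.3 to 1396.4). The difference between these effects was not tested, and -0.78 is the 1 called value among the 4.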

How the results depend on the processing

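Of 1359 marker values recomputed under an alternative, 1256 kept their sign and their side of the threshold, 76 turned sign by no more than their standard error, 13 lost a call and 7 gained one. 7 turned sign by more. With the mean of a gene's probe sets Laptm5 was at 0.014 on average, 0.17 at 3 mg/kg/day for 2 days and 0.11 at 10 mg/kg/day for 2 days, and Csf1r at -0.16 for wild-type littermates against chow, because the probe sets disagree. Leaving out 1 array took Mrc1 to between -0.20 and 0.0138 on average, Lyz2 to between -0.31 and 0.0035 at 3 mg/kg/day for 2 days and between -0.20 and 0.063 for wild-type littermates against chow, with the highest value each time without chow array A. With the mean of probe sets Axl was at 0.11 on average and 0.18 at 10 mg/kg/day for 2 days. Counts of called markers moved as follows. For the rosiglitazone average, 2 were called with array weights (Coro1a and Laptm5), and 0 to 1 when an array was left out (1 without array A given 3 mg/kg/day for 2 days). For 10 mg/kg/day for 2 days, 0 were called with the mean of probe sets, with only the experiment's arrays or with no variance trend (Coro1a adjusted p 0.151, 0.0719 and 0.0543), 2 with array weights, and 0 without any 1 array. For 10 mg/kg/day for 14 days, array weights gave 1. For wild-type littermates against chow, 2 were called with the 70th percentile filter or with array weights (Cd68 and Ptprc), 0 with the mean of probe sets, and 0 to 1 without 1 array. The median of the markers ran from -0.30 to -0.083 on average, from -0.31 to -0.14 at 3 mg/kg/day for 14 days and from -0.079 to 0.10 for wild-type littermates against chow when 1 array was left out. Of 57 pairs of arrays with the same replicate letter, 19 had a correlation of deviations over 0.1 (median 0.026, highest 0.358). Pairs with different letters were not measured, so whether the letters pair arrays was not tested. With the replicate block the called markers stayed at 0, 1 and 1 for the average, 10 mg/kg/day for 2 days and wild-type littermates against chow, the block changed no call of a marker, and all genes called were 2 between doses and 1 for P465L, in place of 0 and 2. Over all genes the calls ranged from 28 (no trend) to 266 (array weights) and from 1 to 83 without 1 array for the average, in place of 48; from 13 to 612 and from 0 to 18 for 10 mg/kg/day for 2 days, in place of 56; from 0 (no filter or no trend) to 257 and from 0 to 9 for 10 mg/kg/day for 14 days, in place of 30; from 0 to 6 for P465L; and from 279 to 1036 for wild-type littermates, in place of 720. Without 1 array up to 3 and 5 genes were called at 3 mg/kg/day for 2 and 14 days, and only the experiment's arrays gave 5 between times. The cause of these changes was not tested. No detection calls were used here, so how far Itgam stands above background is not known.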
